A study of Mus musculus with 6 samples.

Results

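Hypoxia-inducible genes are switched on in most cells when oxygen runs short. A list of 10 genes under that name was followed in embryonic hearts labelled as a cardiomyocyte knockout of Mrps5. Mrps5 encodes a protein of the small subunit of the mitochondrial ribosome. The list holds the regulator Hif1a itself beside Vegfa, Adm, Bnip3, Ankrd37, Egln1, Egln3, Ndrg1, Ddit4 and P4ha1. The 10 genes were taken by name, with earlier results of these data known, and all 10 were found among the 26199 genes of the deposited table. Hearts were taken at embryonic day 12 from littermates of a cross of Mrps5 fl/+; cTNT-Cre with Mrps5 fl/fl mice. The control group (Ctrl) was Mrps5 fl/fl, and the mutant group (cKO) was Mrps5 fl/fl; cTNT-Cre, so both groups carried the floxed alleles and only the mutants carried the Cre transgene. Each group had 3 libraries, and each library came from pooled hearts. Cre is driven by the cardiac troponin T promoter and deletes in cardiomyocytes, so that endothelial, epicardial, mesenchymal and blood cells of the same hearts keep the gene. In whole hearts, fewer cells of a type and less RNA per cell cannot be told apart.

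Cells sense oxygen through a short chain of proteins. When oxygen is plentiful, the prolyl hydroxylases encoded by Egln1, Egln2 and Egln3 mark the HIF alpha proteins, the VHL ubiquitin ligase recognizes the mark, and the proteins are destroyed. When oxygen is scarce the alpha protein persists, pairs with ARNT and binds a short DNA motif, the hypoxia response element, at target genes. Because this control acts on the protein, the level of Hif1a mRNA does not report HIF activity. The embryonic heart develops in low oxygen and depends on HIF and on its target Vegfa for normal growth. Some of the same targets also answer to other stress factors. Ddit4 and Vegfa are also established targets of Atf4, the transcription factor of the integrated stress response, and the other 8 genes were not counted as such.

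Promoter sequences are shown for 4 of the genes, because Ddit4 and P4ha1 stood apart from the controls in a pair of mutant libraries whereas Bnip3 and Ankrd37 did not. RefSeq windows from 250 bases before to 50 bases after a start site (GRCm38.p6) were found for 9 of the 10 genes, all but Ndrg1. The hypoxia response element core was searched on both strands as ACGTG or GCGTG, and matches are in capitals. Only the 250 bases before the start are printed, 5′ to 3′ on the strand of the gene.
Ddit4, chr10:59951771-59952020, minus strand: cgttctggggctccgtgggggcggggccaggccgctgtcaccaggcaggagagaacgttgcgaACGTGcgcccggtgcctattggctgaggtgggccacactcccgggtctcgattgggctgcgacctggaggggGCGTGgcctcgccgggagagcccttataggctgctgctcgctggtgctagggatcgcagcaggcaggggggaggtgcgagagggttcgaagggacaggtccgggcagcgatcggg
P4ha1, chr10:59323046-59323295, plus strand: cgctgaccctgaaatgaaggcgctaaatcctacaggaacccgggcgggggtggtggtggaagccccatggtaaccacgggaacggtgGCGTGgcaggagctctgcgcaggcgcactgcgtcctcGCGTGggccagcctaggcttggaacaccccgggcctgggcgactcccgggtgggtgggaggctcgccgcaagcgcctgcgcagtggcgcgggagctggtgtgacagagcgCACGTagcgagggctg
Bnip3, chr7:138909507-138909756, minus strand: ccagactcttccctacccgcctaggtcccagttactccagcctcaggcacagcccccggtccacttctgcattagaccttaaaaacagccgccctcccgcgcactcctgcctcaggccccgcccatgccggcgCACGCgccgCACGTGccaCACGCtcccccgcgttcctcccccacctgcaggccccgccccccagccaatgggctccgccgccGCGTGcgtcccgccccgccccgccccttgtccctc
Ankrd37, chr8:45999851-46000100, minus strand: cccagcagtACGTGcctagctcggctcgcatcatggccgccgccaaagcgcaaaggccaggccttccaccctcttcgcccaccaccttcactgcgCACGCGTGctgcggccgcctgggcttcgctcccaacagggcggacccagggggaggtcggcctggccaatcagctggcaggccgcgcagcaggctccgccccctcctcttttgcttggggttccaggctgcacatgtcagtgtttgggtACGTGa
Each of the 9 genes had a match in at least 1 window. Of their 10 windows, all but the first of Vegfa held a match, against 43.8% of 32851 promoter windows of the same length in the mouse. For Vegfa the match lay in the second of its 2 windows, at a start site further along the gene. The matches of Ddit4 began at -187 and -115 relative to the start, and those of Bnip3, which include the palindrome CACGTG counted on both strands, lay between -117 and -35. The element bound by Atf4 with its C/EBP partners, searched as TGATGNAA, was in 0 of the 9 genes' windows, against 3.97% of all windows. A match is a description of these letters, and a missing match says nothing of the factor outside the window.

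Values are FPKM, fragment numbers scaled by transcript length and library size, summed over the transcripts of a gene, so that levels can be compared between genes per length. FPKM summed to 454692 to 515952 per library and 12832 to 13516 genes reached 1 FPKM. Read numbers cannot be had from these values, and library depth is therefore unknown. The deleted gene checked the labels. Mrps5 (ENSMUSG00000027374) stood at 9.65, 11.4 and 10.4 FPKM in Ctrl 1, 2 and 3, and at 5.28 and 7.41 in cKO 1 and 2. In the library labelled cKO 3 it stood at 10.4, inside the control range. Its log2 fold change, cKO minus Ctrl, was -0.44 (standard error 0.19, adjusted p = 0.339 from limma), and FPKM over the whole gene also counts any transcript that has lost the floxed exon. Results are therefore given with and without that library. Defining markers of the heart were present in all libraries, with the 15 cardiomyocyte markers summing to 12276 to 14768 FPKM in Ctrl and 9922 to 11851 in cKO. Erythroid markers took 12.0% to 13.3% of the summed FPKM in Ctrl, 23.5% in cKO 1, 10.8% in cKO 2 and 22% in the library labelled cKO 3.

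In control hearts the levels of the 10 genes spanned a wide range. Hif1a was the most abundant, at 85.1 ± 7.0 FPKM (SD, n = 3), and Bnip3 followed at 70.7 ± 3.83 (SD, n = 3). Vegfa, Egln1, P4ha1 and Ddit4 came next in that order, with means from 36.9 down to 7.26 FPKM. Of the neighbours in this order down to Ddit4, only Egln1 and P4ha1 had overlapping replicates. Egln3, Adm, Ankrd37 and Ndrg1 were the lowest, with means from 3.83 down to 3.00 FPKM, and each of them overlapped its neighbours.

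In the mutant group the 3 libraries differed among themselves. Ndrg1, Ddit4, Egln3, P4ha1, Vegfa and Adm stood above all 3 controls in both cKO 1 and cKO 2, which makes 6 of the 10 genes, against 14.9% of the 13262 genes tested. cKO 1 was the highest of the 6 libraries for 7 of the 10 genes, against 11% of all genes. In the library labelled cKO 3 only Ndrg1 and Egln1 stood above all controls. Taken over the 10 genes, the median deviation from the control mean was 0.75 in cKO 1, 0.36 in cKO 2 and 0.04 in the library labelled cKO 3, on the log2(FPKM + 1) scale. For Hif1a, Egln1, Bnip3 and Ankrd37, at least 1 of cKO 1 and cKO 2 lay within or below the range of the controls.

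**Figure D1:**
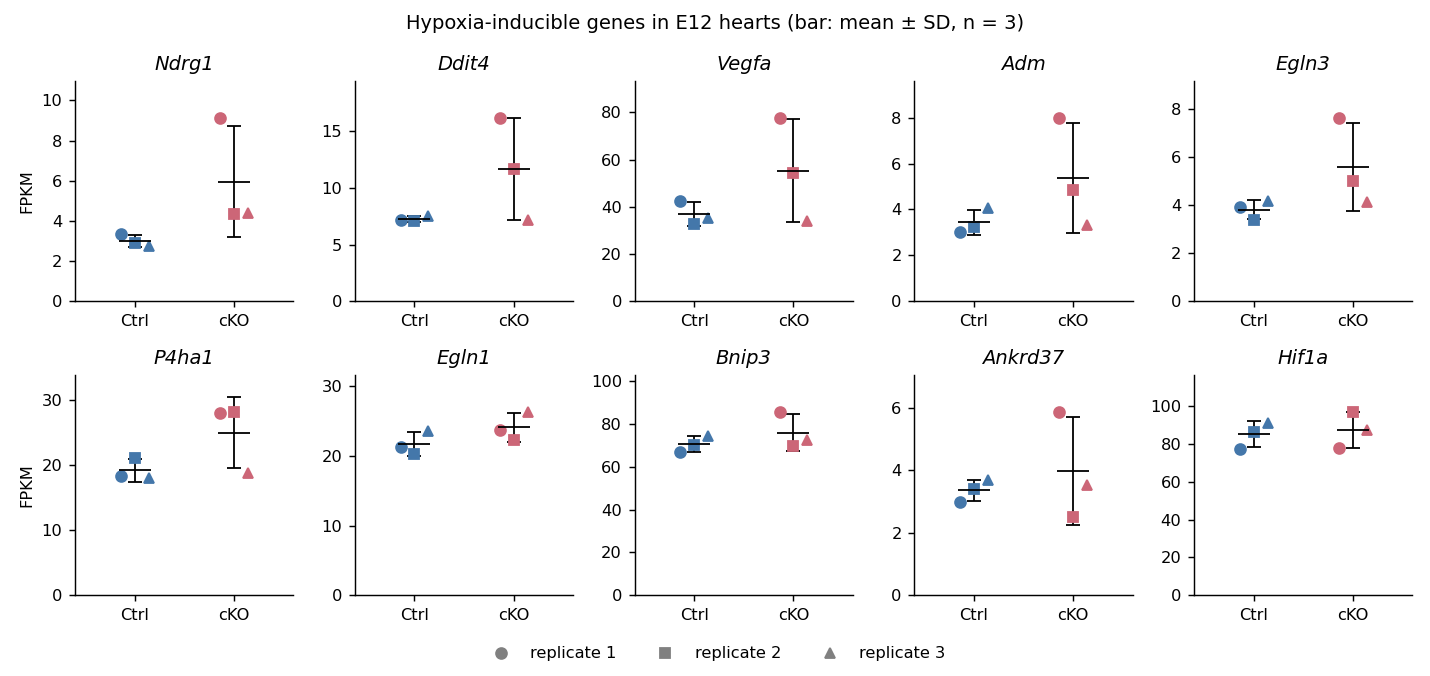
FPKM of each of the 10 genes (vertical axes, each from 0) in the 3 Ctrl (blue) and 3 cKO (red) libraries, with the replicate number as the symbol and bars for the mean ± SD (n = 3). The cKO 1 circle is the highest point for 7 of the 10 genes, and the cKO 3 triangle lies near the controls for all but Ndrg1 and Egln1.

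The groups were compared with limma on log2(FPKM + 1), with Benjamini-Hochberg adjustment over 13262 genes. Standard errors (SE) are those of the log2 fold change, cKO minus Ctrl. On this scale fold changes of genes with low FPKM are understated. At an unadjusted p under 0.05, 2 of the 10 genes were higher in cKO (Ndrg1 and Ddit4) and 0 were lower, against 5.58% of all genes higher and 9.43% lower. No gene of the 10 had an adjusted p under 0.05, a threshold that 0.0829% of all genes passed. Ndrg1 was the only one of the 10 whose 3 cKO values all exceeded the 3 control values, as they did for 7.74% of all genes. The median of the 10 log2 fold changes was 0.38, with all 10 above 0, where the median over all genes was -0.02. Rescaling each library to a common sum turned Hif1a slightly negative, at -0.05, and left the other 9 above 0. The same rescaling moved the split of all genes at an unadjusted p under 0.05 from 740 higher and 1251 lower to 365 and 1624, and a common sum over genes other than the erythroid markers moved it to 963 and 1054. With the erythroid level as a covariate the split was 754 and 688.

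Without the library labelled cKO 3, 6 of the 10 genes were higher at an unadjusted p under 0.05, against 6.42% of all genes. Ddit4 and P4ha1 then rose with adjusted p-values of 0.0249 and 0.0451 from limma, a threshold that 1.03% of all genes passed as higher. The median log2 fold change of the 10 genes became 0.56. Leaving out cKO 1 instead left only Ndrg1, 1 of the 10, below an unadjusted p of 0.05, against 4.12% of all genes higher at that threshold. The p-values measure the spread between these pooled libraries.

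**Figure D2:**
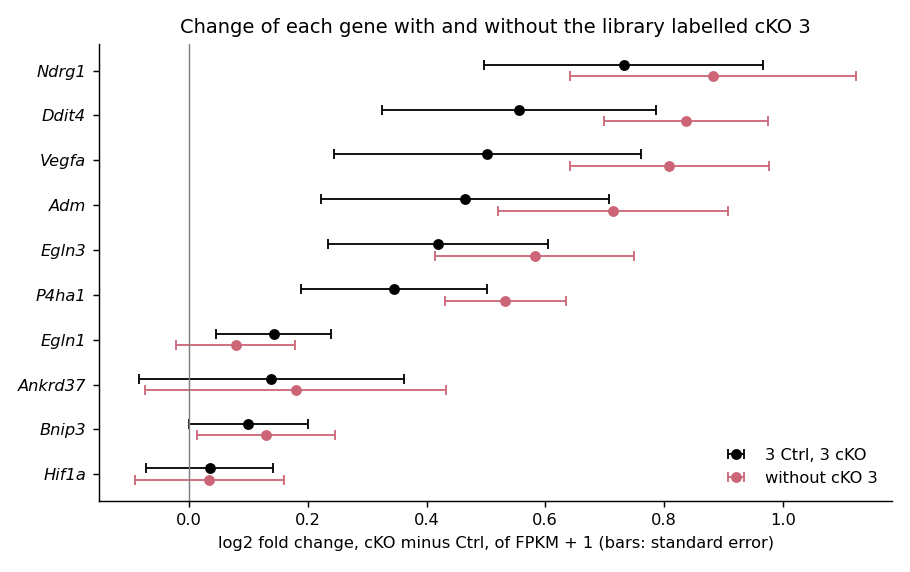
Log2 fold change, cKO minus Ctrl, of FPKM + 1 (horizontal axis) for each of the 10 genes, with all 6 libraries (black) and without the library labelled cKO 3 (red), with bars for the standard error. Ndrg1 is the furthest to the right at 0.73 with all libraries, and Ddit4 moves from 0.56 to 0.84 when that library is left out.

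Among the parts of the oxygen sensor, Hif1a (ENSMUSG00000021109) encodes the oxygen-labile subunit of HIF. Its level was 77.5, 86.6 and 91.3 FPKM in Ctrl 1, 2 and 3 and 77.9, 97.1 and 87.2 in cKO 1, 2 and 3. The groups overlapped, and the log2 fold change was 0.03 (SE 0.11, adjusted p = 0.908 from limma). Epas1, which encodes the related alpha subunit HIF-2 alpha, ranged from 7.95 to 9.27 FPKM in Ctrl and from 9.08 to 10.6 in cKO, a log2 fold change of 0.14. The log2 ratio of Hif1a to Epas1 within a library, each as FPKM + 1, was 3.16 ± 0.0199 (SD, n = 3) in Ctrl and 3.05 ± 0.0764 (SD, n = 3) in cKO. The groups did not overlap, and p was the smallest that an exact two-sided permutation test of 3 against 3 can give, 0.1. It was 0.267 after Benjamini-Hochberg adjustment over the 8 pairs of relatives compared. These include Ddit4 to Ddit4l, described below without a test, and the adjusted p would be higher without that pair.

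The HIF prolyl hydroxylases Egln1 and Egln3 are themselves HIF targets and form a feedback loop. Egln3 (ENSMUSG00000035105) was at 3.92, 3.39 and 4.17 FPKM in Ctrl and at 7.65, 5.01 and 4.14 in cKO. cKO 1 and 2 lay above the controls, and the library labelled cKO 3 lay within them. Egln3 gave a log2 fold change of 0.42 (SE 0.19, adjusted p = 0.338) with all libraries and 0.58 (adjusted p = 0.153) without that library. Egln1 (ENSMUSG00000031987), the main oxygen sensor, was at 21.4, 20.3 and 23.6 FPKM in Ctrl and at 23.7, 22.2 and 26.4 in cKO. Here the library labelled cKO 3 was the highest, the groups overlapped, and the log2 fold change was 0.14 (SE 0.10, adjusted p = 0.531). Egln2, the family member that is not induced by hypoxia, was at 17.0 to 18.5 FPKM in Ctrl and 16.0 to 16.5 in cKO, a log2 fold change of -0.10 (adjusted p = 0.573) with all 3 cKO values below all 3 Ctrl values.

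Vegfa and Adm encode secreted factors. Vegfa (ENSMUSG00000023951), the growth factor that drives vessel formation, was at 42.7, 33.0 and 35.2 FPKM in Ctrl and at 77.7, 54.4 and 33.9 in cKO. cKO 1 was 2.1 times the control mean and cKO 2 1.47 times, whereas the library labelled cKO 3 was inside the control range. The log2 fold change of Vegfa was 0.50 (SE 0.26, adjusted p = 0.403), and 0.81 (SE 0.17, adjusted p = 0.0612) without that library. Adm (ENSMUSG00000030790), which encodes the vasodilator peptide adrenomedullin, was at 3.02, 3.25 and 4.06 FPKM in Ctrl and at 7.99, 4.84 and 3.31 in cKO. The order of the 3 cKO libraries was the one seen for Vegfa. Adm gave a log2 fold change of 0.46 (SE 0.24, adjusted p = 0.410), and 0.71 (adjusted p = 0.133) without the library labelled cKO 3.

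Ddit4 and Ndrg1 are stress-response genes of growth and differentiation. Ddit4 (ENSMUSG00000020108) encodes REDD1, which restrains the mTOR kinase, and its promoter is the first printed above. Its 3 controls were tightly spaced, at 7.17, 7.06 and 7.55 FPKM, and the cKO libraries were at 16.2, 11.6 and 7.21. cKO 1 and 2 stood clear of the controls and the library labelled cKO 3 did not. The log2 fold change of Ddit4 was 0.56 (SE 0.23, unadjusted p = 0.0413, adjusted p = 0.313 from limma), and 0.84 (SE 0.14, adjusted p = 0.0249) without that library. Ndrg1 (ENSMUSG00000005125), a gene of stress and differentiation widely used as a marker of hypoxia, was at 3.35, 2.91 and 2.75 FPKM in Ctrl and at 9.14, 4.35 and 4.39 in cKO. For this gene the library labelled cKO 3 was as high as cKO 2 and above all controls. The log2 fold change of Ndrg1 was 0.73 (SE 0.24, unadjusted p = 0.0139, adjusted p = 0.223), and 0.43 (adjusted p = 0.316) without cKO 1.

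P4ha1 (ENSMUSG00000019916) encodes the catalytic subunit of the prolyl hydroxylase that matures collagen. It was at 18.4, 21.2 and 18.1 FPKM in Ctrl and at 28.0, 28.3 and 18.7 in cKO. It was the one of the 6 genes above the controls in cKO 1 and 2 with nearly equal levels in cKO 1 and cKO 2. P4ha1 gave a log2 fold change of 0.35 (SE 0.16, adjusted p = 0.347), and 0.53 (SE 0.10, adjusted p = 0.0451) without the library labelled cKO 3.

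Bnip3 and Ankrd37 were not set apart from the controls. Bnip3 (ENSMUSG00000078566), a mitochondrial protein that recruits the mitophagy machinery, was at 67.0, 70.4 and 74.7 FPKM in Ctrl and at 85.9, 69.6 and 72.6 in cKO. Only cKO 1 exceeded the controls, and the log2 fold change of Bnip3 was 0.10 (SE 0.10, adjusted p = 0.686). Ankrd37 (ENSMUSG00000050914), which encodes an ankyrin-repeat protein, was at 2.99, 3.38 and 3.67 FPKM in Ctrl and at 5.88, 2.51 and 3.52 in cKO. cKO 1 was the highest library and cKO 2 the lowest, with a log2 fold change of 0.14 (SE 0.22, adjusted p = 0.813) that became -0.12 without cKO 1 and -0.19 with the erythroid level as a covariate.

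Other cell types and blood moved between these libraries, and their values stand beside the genes here. Of the 15 cardiomyocyte markers, 9 were lower in cKO at an unadjusted p under 0.05, against 9.43% of all genes, and 0 higher. Without cKO 1 the 9 became 4, against 7.24% of all genes, and without Ctrl 3 they became 5. In all 6 libraries, 11 had all cKO values below all Ctrl values, against 13% of all genes. The erythroid share was high in cKO 1 and in the library labelled cKO 3, whereas Vegfa, Adm, Egln3, Ddit4 and P4ha1 stood above the controls in cKO 1 and cKO 2. With the erythroid level as a covariate, the log2 fold changes of these 5 genes were 0.36 to 0.62, that of Ndrg1 was 0.49 (unadjusted p = 0.128) in place of 0.73, and 1 of the 10 genes, P4ha1, had an unadjusted p under 0.05. Endothelial markers summed to 270.2 to 294.4 FPKM in Ctrl and 250.5 to 287.7 in cKO, epicardial markers to 137 to 157 and 135 to 179, mesenchymal markers to 321 to 339 and 292 to 396, and macrophage markers to 10.01 to 12.4 and 7.81 to 14. In cKO 1, cKO 2 and the library labelled cKO 3 the median deviation from the control mean was 0.22, 0.26 and -0.19 for the 8 mesenchymal markers and 0.24, 0.015 and -0.24 for the 7 epicardial markers, so that both lists, like Vegfa, Adm, Egln3, Ddit4 and P4ha1, were lowest in that library among the mutants. Without it 3 of the 8 mesenchymal and 2 of the 7 epicardial markers were higher at an unadjusted p under 0.05, against 0 and 1 with it. Pdgfra, a receptor of mesenchymal cells singled out after its values were seen, was at 22.8, 22.7 and 23.1 FPKM in Ctrl and at 32.5, 37.0 and 18.4 in cKO, and rose by 0.58 (adjusted p = 0.0238) without that library. The part of these other marker lists in the results was not tested.

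The closest relatives of the 10 genes held members on both sides. Of 15 relatives listed, 14 passed the filter, but Adm2 passed through its cKO values alone and Ddit4l through its Ctrl values alone, so both had to differ and are described with no test. Of the other 12, 1 was higher and 0 lower at an unadjusted p under 0.05, against 5.58% and 9.43% of all genes. Their median log2 fold change was -0.10. Adm2, an adrenomedullin-like peptide gene, was at 0.43, 0.45 and 0.33 FPKM in Ctrl and at 3.78, 3.44 and 1.61 in cKO. All its cKO libraries stood above its controls, the library labelled cKO 3 by the least. P4ha2, the other catalytic subunit of the collagen enzyme, was at 12.7, 11.1 and 12.5 FPKM in Ctrl and 23.1, 14.4 and 13.5 in cKO, a log2 fold change of 0.42 (unadjusted p = 0.0475, adjusted p = 0.327). Ddit4l, the relative of Ddit4, was lower, with 1.32, 1.35 and 1.89 FPKM in Ctrl and 0.83, 1.00 and 0.82 in cKO.

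With all libraries, the remaining relatives gave unadjusted p-values above 0.05. Log2 fold changes were -0.0062 for Vegfb (0.0043 and 0.019 after rescaling to a common median or to a common sum without erythroid markers), -0.10 for Vegfc and -0.24 for Pgf, the other vascular growth factors, and Vegfd did not pass the filter. They were 0.02 for Bnip3l (-0.06 after rescaling to a common sum), -0.15 for Hif3a, 0.14 for Epas1 and -0.25 for P4ha3. In the Ndrg family they were -0.17 for Ndrg2, 0.13 for Ndrg3 and -0.15 for Ndrg4, beside 0.73 for Ndrg1. Log2 ratios of FPKM + 1 within a library were compared for 8 pairs of relatives, and the added 1 makes them smaller for low genes. The ratio of Ndrg1 to Ndrg2 was higher in cKO by 0.90, without overlap and with the smallest exact permutation p that 3 against 3 allows, 0.1. After the same adjustment it was 0.267, which would also be higher without the pair of Ddit4 to Ddit4l. Without the added 1, a setting chosen after seeing the data, the difference for Ndrg1 to Ndrg2 was 1.07 and that for Hif1a to Epas1 was -0.12 in place of -0.10. The ratio of Ddit4 to Ddit4l was higher by 1.38 without the added 1 and by 0.97 with it. Both are given as a description because Ddit4l passed the filter through Ctrl alone. The ratio of Vegfa to Vegfb differed by 0.51 (exact permutation p = 0.4), of Egln1 to Egln2 by 0.25 (p = 0.2), of Egln3 to Egln1 by 0.28 (p = 0.4), of Bnip3 to Bnip3l by 0.08 (p = 0.3) and of P4ha1 to P4ha2 by -0.08 (p = 0.6), all with overlap.

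The machinery that controls HIF showed little movement. All 15 genes of this list were tested, with 0 past the adjusted threshold of limma and log2 fold changes from -0.15 to 0.14. At an unadjusted p under 0.05, 0 were higher and 0 lower, against 5.58% and 9.43% of all genes, shares that leave few in 15. Without the library labelled cKO 3, Hif3a was lower, at -0.23 (unadjusted p = 0.0395, adjusted p = 0.297 from limma). Arnt, the partner of the alpha subunits, was at 19.1 to 20.0 FPKM in Ctrl and 16.1 to 21.2 in cKO. Vhl, the recognition subunit of the ligase, was at 7.37 to 9.29 FPKM and 7.89 to 9.31. Hif1an, which encodes the asparagine hydroxylase of HIF, was at 16.0 to 17.1 FPKM and 13.9 to 16.2. In all 3 the groups overlapped. The direction of Vhl turned from 0.03 to -0.04 on the log2 scale after rescaling to a common sum.

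Receptors, cofactors and substrates of the encoded proteins were a mixed set. Of 20 such partners, 19 were tested, and the median log2 fold change was 0.01. At an unadjusted p under 0.05, 2 were higher and 2 lower, against 5.58% and 9.43% of all genes. Txnip, a redox regulator that forms a complex with REDD1, was at 40.8 to 52.3 FPKM in Ctrl and 24.8 to 31.2 in cKO, a log2 fold change of -0.73 (SE 0.12, adjusted p = 0.0782) and of -0.75 (adjusted p = 0.0422) without the library labelled cKO 3. Ramp1, a co-receptor subunit of the calcitonin receptor-like receptor, gave -0.27 (adjusted p = 0.263). P4hb, the beta subunit of the collagen prolyl hydroxylase, gave 0.22 (adjusted p = 0.332), and the basement membrane collagen gene Col4a2 gave 0.22 (adjusted p = 0.289).

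Other HIF targets were then counted, from a list of 50 genes outside glycolysis, of which 47 were tested. This list, the glycolytic targets and the relatives were not sorted by which genes also answer to Atf4 or to other stress factors. Their counts therefore do not stand for HIF alone. At an unadjusted p under 0.05, 9 were higher and 2 lower, against 5.58% and 9.43% of all genes, and the median log2 fold change was 0.14. The metallothionein genes Mt1 and Mt2, which bind metals and answer to several stresses, were the highest of them, at 1.72 (SE 0.28, adjusted p = 0.0749) and 1.77 (SE 0.30, adjusted p = 0.0828). In cKO 1, 2 and 3 they stood at 487, 246 and 371 and at 559, 287 and 422 FPKM, lowest in cKO 2 as was the erythroid share. With the erythroid level as a covariate they gave 1.26 and 1.31 (adjusted p = 0.212 and 0.247 from limma). Stc2, a secreted glycoprotein of stressed cells, was at 1.41 to 2.03 FPKM in Ctrl and at 9.15, 7.57 and 2.99 in cKO, so that it shared the order of libraries seen for Vegfa and Ddit4 and still exceeded the controls in the library labelled cKO 3. Its log2 fold change was 1.38 (adjusted p = 0.142), and it rose by 1.79 (adjusted p = 0.000858) without that library. Hmox1, the heme-degrading enzyme, was at 6.69 to 8.43 FPKM in Ctrl and at 15.2, 16.1 and 9.77 in cKO, and Ero1l, an oxidase of the endoplasmic reticulum, was at 17.3 to 20.5 FPKM and at 32.0, 27.3 and 23.0. Their log2 fold changes were 0.79 (adjusted p = 0.141) and 0.51 (adjusted p = 0.161), and without the library labelled cKO 3 they rose by 1.00 (adjusted p = 0.00527) and 0.62 (adjusted p = 0.0371). Igfbp3, which binds insulin-like growth factors, gave 0.34 (adjusted p = 0.262) and the growth factor gene Pdgfb gave 0.51 (adjusted p = 0.268). The 9 higher genes of this list became 16 without that library, against 6.42% of all genes, and 5 without Ctrl 1, without Ctrl 3 or without cKO 1, against 3.32%, 3.77% and 4.12%. They were 6 after rescaling to a common sum, against 2.75%.

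Epo, the classical HIF target and the hormone of red cell production, was lowest in cKO 1 and in the library labelled cKO 3. It was at 3.08, 1.53 and 3.59 FPKM in Ctrl and at 0.05 and 1.6 in cKO 1 and 2, and is listed at 0 in the library labelled cKO 3. Epo gave a log2 fold change of -1.37 (SE 0.38, adjusted p = 0.179), and cKO 2 lay inside the control range. The value was -1.13 (adjusted p = 0.224) without the library labelled cKO 3 and -1.17 (adjusted p = 0.385) without cKO 1. It was -1.82 without cKO 2, given as a description because only Ctrl values then reached 1 FPKM. The libraries with the least Epo were those with the highest erythroid share, and with the erythroid level as a covariate its value was -0.62 (adjusted p = 0.445).

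Several glycolytic HIF targets were higher in all 3 cKO libraries. All 17 were tested, with 6 higher and 0 lower at an unadjusted p under 0.05, against 5.58% and 9.43% of all genes. For 8 of them all cKO values lay above all Ctrl values, against 7.74% of all genes. Both counts include Gapdh, whose value is uncertain. The median log2 fold change was 0.14, with 12 genes above 0 and 5 below, from -0.16 to 1.55. Slc2a1, the main glucose transporter of embryonic tissue, was at 90.7, 95.8 and 99.7 FPKM in Ctrl and at 119, 120 and 128 in cKO. Slc2a3, a high-affinity glucose transporter, was at 10.7, 13.7 and 10.9 FPKM in Ctrl and at 21.9, 20.5 and 18 in cKO. For both transporters every cKO library stood above every control, including the library labelled cKO 3. Their log2 fold changes were 0.35 (SE 0.08, adjusted p = 0.148) and 0.73 (SE 0.12, adjusted p = 0.0685). Hk2, the inducible hexokinase, was at 18.9 to 21 FPKM in Ctrl and at 36.4, 32.0 and 22.8 in cKO (log2 fold change 0.58, adjusted p = 0.170). Eno2, an enolase best known from neurons, was at 1.08 to 1.5 FPKM in Ctrl and at 9.94, 7.85 and 2.13 in cKO (log2 fold change 1.55, adjusted p = 0.168). Slc2a3, Hk2 and Eno2 shared the order of cKO libraries seen for Vegfa and Adm. Without the library labelled cKO 3 these 3 of the 17 genes rose past the adjusted threshold, Slc2a3 by 0.80 (adjusted p = 0.0165), Hk2 by 0.77 (adjusted p = 0.00779) and Eno2 by 2.1 (adjusted p = 0.000394). Aldoa, the muscle aldolase, gave 0.34 (adjusted p = 0.280). Gapdh gave 0.89 (adjusted p = 0.272) but has many near-identical copies in the genome that can share its reads, and its most abundant transcript alone gave -1.07, so its value is uncertain.

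Because Ddit4 and Vegfa also answer to Atf4, they were set beside 32 genes of the Atf4 response, of which 29 were tested. Chac1 and Nupr1 passed the filter through their cKO values alone and are left out of the counts. The other 27 were all higher at an unadjusted p under 0.05, with a median change of 1.13 on the log2 scale, and 26 had all cKO values above all Ctrl values. An adjusted p under 0.05 was reached by 6 of the 27. Using the erythroid level as a covariate, no filter, the replicate number as a block or the most abundant transcript alone each left 2. The adjusted threshold was passed by 3 without the variance trend, by 15 with library weights, by 19 after rescaling to a common sum, and by 26 without the library labelled cKO 3. With 1 of the other libraries left out, 2 to 10 of the 27 reached it, the lowest count without Ctrl 1, Ctrl 2 or Ctrl 3, 3 without cKO 1 and the highest without cKO 2. Atf4 itself was at 52.5, 58.1 and 57.5 FPKM in Ctrl and at 152, 137 and 103 in cKO, and rose by 1.19 (SE 0.14, adjusted p = 0.0313, or 0.117 with the erythroid level as a covariate). Trib3, a pseudokinase that feeds back on Atf4, was at 3.14 to 3.89 FPKM in Ctrl and at 31.8, 26.9 and 18.4 in cKO, and rose by 2.56 (adjusted p = 0.0031). Ddit3, which encodes the stress factor CHOP, was at 8.20 to 8.82 FPKM in Ctrl and at 44.8, 35.7 and 15.5 in cKO. The asparagine synthetase gene Asns gave a log2 fold change of 1.86 (adjusted p = 0.0605). Chac1, which encodes a glutathione-degrading enzyme, was at 0.29, 0.06 and 0.20 FPKM in Ctrl and at 11, 8.62 and 2.43 in cKO.

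In the library labelled cKO 3, 26 of the 27 Atf4 response genes exceeded all controls, beside 11 of the 17 glycolytic targets, 19 of the 47 other HIF targets, 2 of the 10 hypoxia-inducible genes and 3231 of the 13262 genes tested. The median deviation from the control mean in cKO 1, cKO 2 and that library was 1.42, 1.26 and 0.68 for the 27 Atf4 genes, 0.20, 0.14 and 0.03 for other HIF targets, and 0.09, 0.15 and 0.19 for glycolytic targets. For Ddit4 and Vegfa, the pair known to answer to Atf4, the median was 1.06, 0.59 and -0.06. Atf3, the 1 of the 27 that did not exceed all controls there, was also at the control level in that library, at 5.04 FPKM against 4.93 to 5.39 in Ctrl, with 12.9 and 11.2 in cKO 1 and 2. Eif4ebp1 stood just above its controls, at 29.7 FPKM against 26.6 to 29.6. Both were named after their values were seen. Without the library labelled cKO 3 the median log2 fold change of Ddit4 and Vegfa was 0.82, beside 1.29 for the 27 Atf4 genes.

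**Figure D3:**
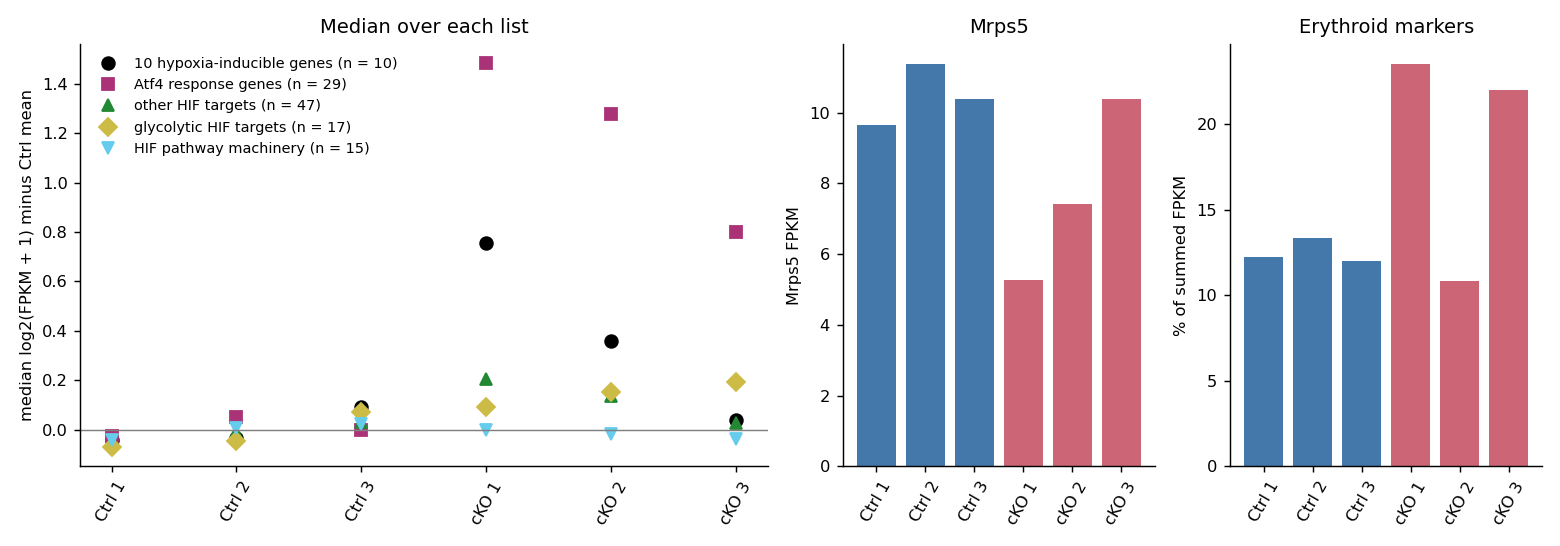
Left, the median over each gene list of log2(FPKM + 1) minus the control mean (vertical axis) in each library. Centre and right, Mrps5 FPKM and the erythroid share of the summed FPKM (%) as bars per library. The 10 hypoxia-inducible genes (black circles) stand at 0.75, 0.36 and 0.04 in cKO 1, 2 and 3, and the 29 Atf4 response genes tested (squares, Chac1 and Nupr1 included) at 1.48, 1.28 and 0.80.

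**Figure D4:**
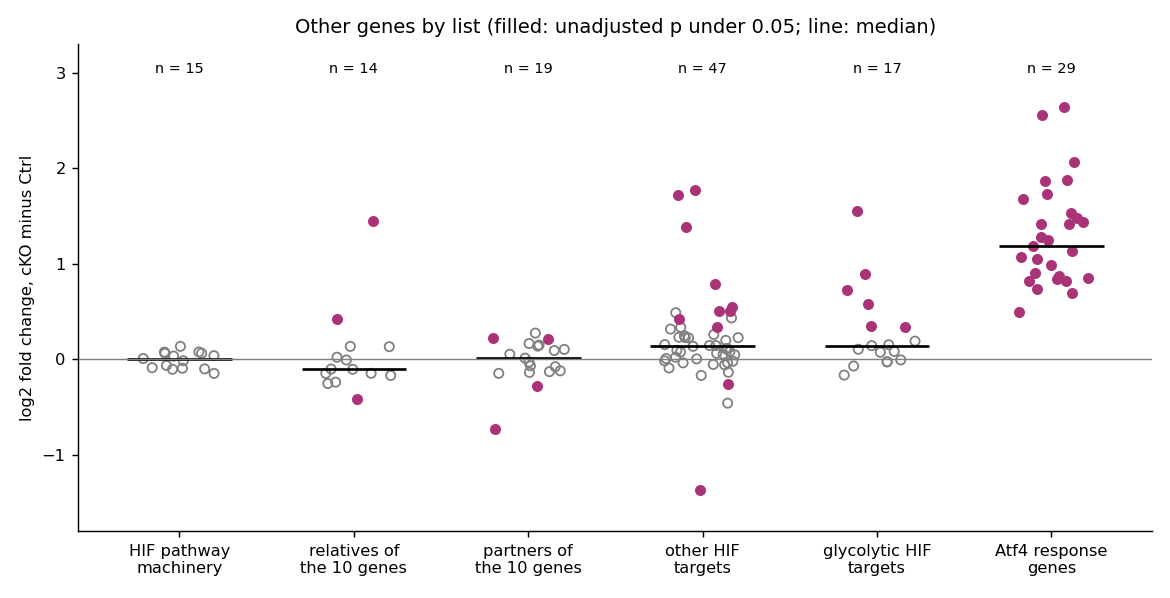
Log2 fold change, cKO minus Ctrl, of FPKM + 1 (vertical axis) of each gene tested in 6 lists (horizontal axis), with points filled at an unadjusted p under 0.05 and a line at the median. The machinery list holds 0 filled points and the Atf4 list 29 of 29, of which Chac1 and Nupr1 passed the filter through cKO alone, and other HIF targets spread from -1.37 to 1.77.

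The patterns of Ndrg1 and Ddit4, the pair past the unadjusted threshold, were set beside those of all other genes over the 6 libraries, as a description. The log2 values of Ddit4 were most like those of Zfp36 (Pearson's r = 0.988), Adck5 (r = 0.988) and Pdgfb (r = 0.982). Those of Ndrg1 were most like Gm16049 (r = 0.996), Hps4 (r = 0.983) and Kdm7a (r = 0.978). With 13262 genes and 6 libraries that share their group, high values of r are reached by many genes.

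Transcripts of the 10 genes were also listed separately, and their names and protein lengths were taken from GENCODE M21. Adm, Ankrd37, Ddit4, Egln1 and Egln3 had 1 transcript each, whereas Vegfa had 8, of which 3 averaged at least 1 FPKM. Vegfa-207 (392 residues) was at 13.5, 9.95 and 12.0 FPKM in Ctrl and at 31.8, 18.7 and 11.3 in cKO. Vegfa-201 (146 residues) was at 18.8, 16.9 and 17.3 FPKM and at 28.4, 25.7 and 16.2, and Vegfa-202 (368 residues) was at 10.2, 5.65 and 5.73 FPKM and at 17.2, 9.87 and 6.10. All 3 were above their own controls in cKO 1, and Vegfa-201 and Vegfa-207 also in cKO 2. For P4ha1 and Hif1a the split between transcripts differed by library rather than by group. P4ha1-203 made up most of P4ha1 in replicate 2 of both groups, at 16.5 FPKM in Ctrl and 23.4 in cKO, whereas P4ha1-201 did so in the other 4 libraries, and both encode 534 residues. Hif1a-201 (836 residues) was the most abundant Hif1a transcript in all 6 libraries, and Hif1a-202 (810 residues) ranged from 2.92 to 13.5 FPKM in Ctrl and from 5.05 to 26.4 in cKO. Estimates of such similar transcripts share most of their reads, so the gene sums are the firmer values.

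**Figure D5:**
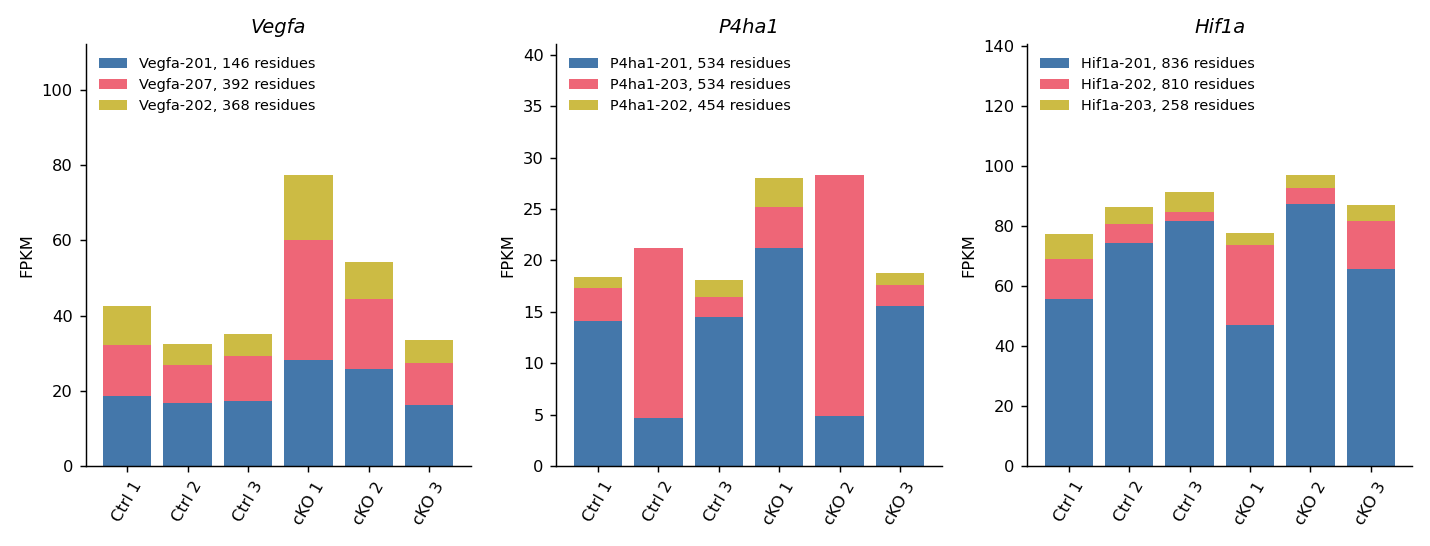
FPKM (vertical axes) of the 3 transcripts of Vegfa, P4ha1 and Hif1a with a mean of at least 1 FPKM, stacked per library, with the length of the encoded protein in residues. The Vegfa stack is tallest in cKO 1 and cKO 2, and P4ha1-203 is the main P4ha1 transcript only in Ctrl 2 and cKO 2.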

How the data were processed

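RNA of pooled hearts at embryonic day 12 was depleted of ribosomal RNA and sequenced as strand-specific libraries, 3 per group. The authors deposited FPKM per transcript, and the submitters' processing notes name the mm9 build, Bowtie2 2.2.8, HISAT2, StringTie 1.3.1 and Cuffdiff 2.1.1, with no role or annotation release given in the sources used here. FPKM keep no read numbers, so counting error could not be given and no count test was run. FPKM were summed per gene, and 27 symbols that a spreadsheet had turned into dates were restored. Log2(FPKM + 1) of genes with at least 1 FPKM in at least 3 libraries was compared with limma 3.58.1 (R 4.3.3), with a trend and Benjamini-Hochberg adjustment, after tests on simulated data. Pairs of relatives were compared by exact permutation. Groups came from the sample titles. The 10 genes and all lists were chosen with earlier results of these data known. Named genes were the 10 genes, Mrps5, all relatives, 5 Atf4 genes and 3 machinery genes, up to 8 genes of each other list with the smallest unadjusted p under 0.05, and the 3 genes most like each of the 10 with such a p. Alternatives varied the pseudocount, filter, scaling, covariate, block, variance trend, library weights, transcript and libraries.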

Additional observations from a re-analysis of the deposited data

How the results depend on the processing

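Over all 13262 genes, 11 had an adjusted p under 0.05, and this count was 5 without a filter on low values, 111 after rescaling to a common sum, 6 with the erythroid level as a covariate, 6 without the variance trend, 36 with library weights, 4 with the most abundant transcript alone, and 5 to 269 when 1 library was left out, with 119 without cKO 2 and 269 without the library labelled cKO 3. The count at an unadjusted p under 0.05 was 1991, and 1314 with the filter set at a mean of 5 FPKM and 1216 to 2166 with 1 library left out. Of the 10 hypoxia-inducible genes, 2 had an unadjusted p under 0.05, against 1 without a filter, 1 with the filter set at a mean of 5 FPKM (6 of the 10 tested), 4 after rescaling to a common sum without erythroid markers, 1 with the erythroid covariate, 6 with library weights, 1 with the most abundant transcript, and 1 to 6 with 1 library left out. In the same order, 4.16%, 6.61%, 7.26%, 5.69%, 5.91%, 4.95% and 3.32% to 6.57% of all genes were higher at that threshold. The number whose groups did not overlap was 1, against 0 with the filter at a mean of 5 FPKM. It was 2 after rescaling to a common median and 3 after rescaling to a common sum without erythroid markers. With 1 library left out it was 1 to 6, and cKO lay above Ctrl wherever the groups did not overlap. With the main setting, all cKO values lay below all Ctrl values in 0 of the 10 and in 13% of all genes. All cKO values exceeded all Ctrl values in 7.74% of all genes, and in 8.99%, 8.57%, 10.4% and 10.4% to 14.9% under those alternatives in the same order. The cause was not tested.

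The main fit did not pair the libraries by replicate number, and the labels tie no number to a litter or day. Deviations from the group means of libraries with the same number correlated at 0.215, 0.108 and 0.089, and each library correlated best with its own number. Ctrl 2 and cKO 2 also shared P4ha1-203 as the main P4ha1 transcript. Whether libraries of the same replicate number shared a batch was not tested. A fit with that number as a block left 4 genes at an adjusted p under 0.05, and 5 of the 10 genes, against 5.74% of all genes, higher at an unadjusted p under 0.05, and it took the Atf4 genes at the adjusted threshold from 6 to 2.

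Vegfa, Adm, Bnip3, Egln1, Egln3, Ndrg1, Ddit4 and P4ha1 kept their direction under every alternative run. Hif1a turned to -0.049 after rescaling to a common sum, to -0.0036 with library weights and to -0.10 with the most abundant transcript, and ran from -0.043 to 0.11 with 1 library left out. Ankrd37 turned to -0.19 with the erythroid covariate and ran from -0.12 to 0.36. Vegfb, at -0.0062, turned to 0.0043 and 0.019 under the rescaling to a common median and to a common sum without erythroid markers, and ran from -0.059 to 0.033. Bnip3l turned to -0.061 after rescaling to a common sum and to -0.11 with the erythroid covariate, and ran from -0.048 to 0.11. Vhl turned to -0.040 after rescaling to a common sum and ran from -0.037 to 0.11. Ndrg3 turned to -0.021 with the erythroid covariate. With the most abundant transcript alone P4ha2 turned to -0.55, Arnt to 0.039 and Gapdh to -1.07. With 1 library left out, Vegfc ran from -0.24 to 0.0031, Ndrg4 from -0.34 to 0.043 and Arnt from -0.19 to 0.0023. Atf4 kept its direction and lost the adjusted threshold in 9 alternatives, with adjusted p-values from 0.0604 to 0.213.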
